A study of Homo sapiens with 15 samples.

Results

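The comparison described here sets HSC-5 cells that carry the PRMT5 guide sgPRMT5-2 against HSC-5 cells that carry the control sgNeg. Its libraries were chosen by their group labels, which give 3 sgPRMT5-2 and 3 sgNeg libraries, 6 of the 15 RNA sequencing libraries in the series. HSC-5 is an established human cell line of cutaneous squamous carcinoma origin. The series asks how loss of the arginine methyltransferase PRMT5, or of its partner WDR77, alters the transcripts of squamous carcinoma cells, with a pair of guides for each gene and 3 biological replicates per group. The genotype label is WT for sgNeg and PRMT5 Knockout for sgPRMT5-2 and for sgPRMT5-1, the other PRMT5 guide. All 3 of these groups have the label Neomycin as treatment. The methods call the knockouts complete and name a qRT-PCR check. The legend of the qRT-PCR in HSC-5 cells names sgPRMT5-1 and a WDR77 guide, and not sgPRMT5-2. Clone or population status and the share of edited alleles per library are not given for these samples. The study places its guide sequences in a supplementary table that could not be read here, so none is shown.

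The measured quantity is the number of 76-base single-end reads that the authors counted on each gene. The sgNeg libraries hold 5824192, 5806938 and 5434211 reads on genes in replicates 1, 2 and 3. The sgPRMT5-2 libraries hold 6730428, 6058519 and 6124306. Values per library are given below in that replicate order, as CPM of a library size scaled by trimmed means (TMM), and a fold change is sgPRMT5-2 over sgNeg on the log2 scale. A floor of 3 counts corresponds to 0.446 to 0.552 CPM of the reads on genes in these 6 libraries, and it covers counting error only. The adjusted p is that of limma voom with Benjamini-Hochberg adjustment over all genes tested. It weighs the difference between groups against the spread between these replicates, with variances moderated over all genes. A gene is called higher or lower at an adjusted p of at most 0.05.

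sgNeg replicate 2 stands apart from the other libraries of the comparison. Reads outside genes made up 7.16% of its listed reads, against 2.84% and 3.56% in the other sgNeg libraries and 4.03% to 4.26% in sgPRMT5-2. Mitochondrial transcripts took 2.54% of its reads on genes, against 0.954% and 1.19% in the other sgNeg libraries and at most 1.72% in sgPRMT5-2. It has 20399 genes with a read, against 18576 to 19230 in the other 5 libraries. Between pairs of replicates, the chi-square per degree of freedom was 3.86 to 9.16 in sgNeg and 1.55 to 2.44 in sgPRMT5-2, so the control replicates differ more among themselves. With all 6 libraries, 2960 genes were higher and 2733 lower, and without sgNeg replicate 2 the counts were 2801 and 2867.

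Cell type markers fit an epithelial line of this origin in part. The 8 keratinocyte markers summed to 2954, 2889 and 3379 CPM in sgNeg and to 2346, 2371 and 2467 CPM in sgPRMT5-2, and KRT17 was the most abundant of them. KRT14, the usual partner of KRT5 in basal cells, had 1 to 4 reads per library in both groups. Of 8 fibroblast markers, 7 stayed under 10 reads in every library, COL1A2 and DCN were at 0 in all 6, and COL1A1 had 41 to 86 reads. Of 5 immune markers, PTPRC, CD3E and MS4A1 were at 0 in all 6 libraries. Among 4 endothelial markers KDR was at 0 and CDH5 had 86 to 122 reads. Among 5 melanocyte markers DCT and TYR were at 0 and MITF had 40 to 75 reads.

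PRMT5 transfers methyl groups to arginines and makes symmetric dimethylarginine. It works in a complex with WDR77, and the adaptors CLNS1A, RIOK1 and COPRS bring it to different substrates, among them the Sm proteins of the spliceosome, nucleolar proteins and histones. In squamous epithelium the transcription factor p63 maintains the basal keratinocyte state, and squamous carcinomas usually keep it.

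PRMT5 (ENSG00000100462.16, minus strand of chromosome 14 from 22920525 to 22929408, GRCh38) was the gene targeted. It had 349, 302 and 374 reads in sgNeg and 284, 262 and 233 reads in sgPRMT5-2, which is 59.00, 49.3 and 67.7 CPM in sgNeg and 43.5, 44.4 and 39.2 CPM in sgPRMT5-2. All 3 sgPRMT5-2 values lay below the lowest sgNeg value, although by little, and the mean was 72.2% of the sgNeg mean. Its log2 fold change was -0.45 with a standard error (SE) of 0.11 and an adjusted p of 0.00257 by limma voom with Benjamini-Hochberg adjustment. An edited allele can still be transcribed, so this level does not measure PRMT5 protein or activity. The study reports reduced PRMT5 protein after PRMT5 depletion, with a Western blot of this cell line that includes the guide described here.

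The partner WDR77 was at 125, 113 and 119 CPM in sgNeg and 125, 129 and 119 CPM in sgPRMT5-2. These groups overlapped, and the log2 fold change of 0.062 (adjusted p 0.532) turned to -0.02 with library totals alone as the scaling. At the protein level, which was not measured here, the study reports loss of WDR77 after PRMT5 depletion. RIOK1, the adaptor for nucleolar substrates, rose from 40.9 ± 2.12 CPM in sgNeg to 64.4 ± 2.00 CPM in sgPRMT5-2 (SD, n = 3), a log2 fold change of 0.66 (adjusted p 9.07e-06). COPRS, the adaptor for histones, rose by 0.41 on the log2 scale. CLNS1A, which presents Sm proteins, overlapped between groups, with 0.094. Of the 5 methylosome genes, 2 were thus higher and 1 lower, beside 20.9% of all 14184 tested genes higher and 19.3% lower.

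Among the other arginine methyltransferases, 3 of 7 tested were higher and 0 lower, and their median of 0.015 became -0.068 with library totals alone and ranged from 0.010 to 0.082 with each library left out in turn. CARM1, which makes asymmetric dimethylarginine on histones and splicing proteins, was at 48.5, 40.6 and 51.6 CPM in sgNeg and 67.6, 65.3 and 68.6 CPM in sgPRMT5-2. CARM1 values in sgPRMT5-2 all lay above those in sgNeg (log2 fold change 0.53, adjusted p 0.000199). PRMT1, the main asymmetric enzyme of most cells, rose by 0.40 on the log2 scale. PRMT7, with overlapping groups, was at 0.32. Its call was lost in 7 of 14 alternative settings, among them without sgNeg replicates 1 and 2 (0.25 and 0.27) and without sgPRMT5-2 replicates 2 and 3 (0.34 and 0.31).

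Across all genes, 5693 of 14184 passed the test, 40.1%. At least 2-fold changes were less even: 339 genes (2.39%) were higher and 909 (6.41%) lower. The median log2 fold change of all tested genes was 0.0014. Gene lists are described below by their counts beside these shares and by their median beside this median. Since the RNA comes from whole cultures, fewer cells of a type and less RNA per cell cannot be told apart.

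**Figure D1:**
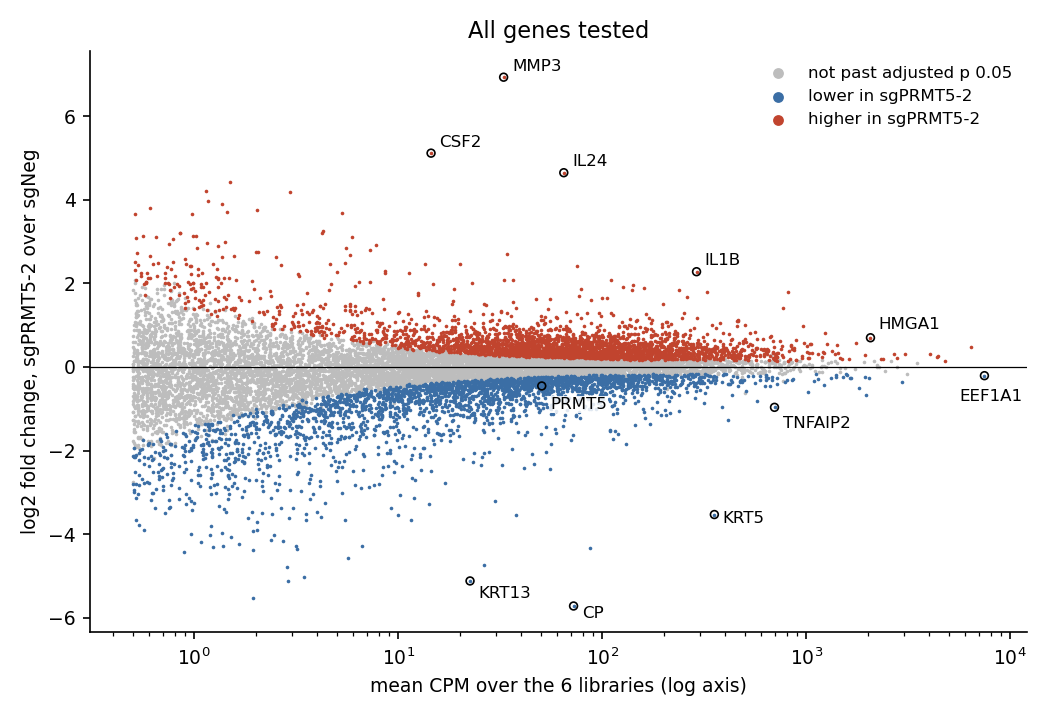
Each point is a tested gene, with its mean CPM over the 6 libraries on a log axis and its log2 fold change, sgPRMT5-2 over sgNeg, on the vertical axis; genes past an adjusted p of 0.05 are red where higher and blue where lower. MMP3, CSF2 and IL24 lie highest among the circled genes, CP and KRT13 lowest, and PRMT5 sits just under 0.

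MMP3 (stromelysin, a protease that opens the basement membrane) had 1, 2 and 8 reads in sgNeg and 446, 400 and 351 reads in sgPRMT5-2. Every sgPRMT5-2 library thus stood far above every sgNeg library, and the log2 fold change of 6.93 (SE 0.55, adjusted p 7.59e-09) was 7.65 without sgNeg replicate 3, which holds most of the sgNeg reads. CSF2, the growth factor of granulocytes and macrophages, had 3, 8 and 3 reads in sgNeg and 188, 180 and 150 reads in sgPRMT5-2. CSF2 rose by 5.12 on the log2 scale (adjusted p 2.33e-08). IL24, a cytokine of the IL-10 family made by keratinocytes, was at 3.89, 4.90 and 6.15 CPM in sgNeg and 118, 122 and 134 CPM in sgPRMT5-2. IL24 values did not overlap between groups, with a log2 fold change of 4.65 (SE 0.20, adjusted p 9.92e-13).

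The other 5 of the 8 genes with the largest increases were SLIT2, a guidance cue, at 3.11, TRAF1, an adaptor of TNF receptors, at 2.91, IL11 at 2.79, the protease ADAMTS1 at 2.699 and the matrix protein TNC at 2.69. These 8, and the 8 decreases below, were picked by fold among called genes whose groups do not overlap and whose higher group reaches 10 CPM, so their separation is part of the choice.

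The largest decreases were in keratins, secreted proteins and a detoxifying enzyme. CP, the copper oxidase ceruloplasmin, was at 224, 100.4 and 102 CPM in sgNeg and 2.61, 1.69 and 3.19 CPM in sgPRMT5-2. CP fell by 5.72 on the log2 scale (SE 0.64, adjusted p 8.17e-07), with all sgPRMT5-2 values far below sgNeg. ALDH3A1, an aldehyde dehydrogenase of epithelia, fell by 4.73 from 51.1 ± 15.4 CPM in sgNeg to 1.87 ± 0.602 CPM in sgPRMT5-2 (SD, n = 3). SPP1, the matrix protein osteopontin, had 105, 38 and 50 reads in sgNeg and 4, 2 and 1 reads in sgPRMT5-2. MXRA5 fell by 4.29, and SPARC, a collagen-binding protein, by 3.66. The remaining 3 of the 8, KRT13, KRT15 and KRT6A, are keratins and are described with their family.

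By difference of mean CPM, the largest increases were in ACTG1 and ACTB, the cytoplasmic actins, HMGA1, MT2A, HSP90AB1 and GAPDH, and the largest decreases in EEF1A1, RPLP0, GSTP1, KRT5, TNFAIP2 and TBL1XR1. MT2A, a metallothionein that binds zinc and copper, was at 412, 328 and 357 CPM in sgNeg and 1187, 1242 and 1341 CPM in sgPRMT5-2. MT2A rose by 1.78 on the log2 scale (adjusted p 8.26e-13), and metallothionein genes are similar enough that reads may be shared among them. ACTG1 was at 5676, 4739 and 5593 CPM in sgNeg and 7407, 7444 and 7531 CPM in sgPRMT5-2. The ACTG1 groups did not overlap, and its fold was 1.40. GAPDH rose by 0.24, a call lost in the fit of all 15 libraries. EEF1A1, at -0.21, lost its call in 6 of 14 alternative settings, among them without sgNeg replicate 1 (-0.097) and without each sgPRMT5-2 replicate (-0.17, -0.19 and -0.20).

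Keratins form the intermediate filaments of epithelia in pairs of a type I and a type II chain, and the pairs change with layer and tissue. KRT5 (ENSG00000186081.12), the type II chain of basal keratinocytes, was at 511, 634 and 815 CPM in sgNeg and 60.4, 51.97 and 53.8 CPM in sgPRMT5-2. Every sgPRMT5-2 library was far below every sgNeg library, with a log2 fold change of -3.53 (SE 0.13, adjusted p 4.69e-13). KRT15, a type I chain of basal cells, was at 195, 113 and 188 CPM in sgNeg and 4.75, 8.80 and 12.1 CPM in sgPRMT5-2. KRT15 fell by 4.34 on the log2 scale (adjusted p 1.75e-09). KRT13, a chain of the suprabasal layers of moist stratified epithelia, was at 45.5, 33.5 and 52.3 CPM in sgNeg and 0.766, 1.35 and 1.51 CPM in sgPRMT5-2. KRT13 fell by 5.12 (adjusted p 3.93e-08), and KRT6A, a chain of activated keratinocytes with near-identical copies, by 3.66.

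Of the chains of simple epithelia named here, KRT7, KRT8 and KRT18 were higher and KRT19 was lower. KRT7 was at 22.8, 13.9 and 18.3 CPM in sgNeg and 47.8, 48.2 and 40.2 CPM in sgPRMT5-2. KRT7 rose by 1.33 (adjusted p 6.16e-07), KRT8 by 0.51 and its partner KRT18 by 0.50, and these last 2 genes lie beside each other with overlapping annotations. KRT80 rose by 0.81. KRT19 was at 565, 555 and 631 CPM in sgNeg and 246, 239 and 242 CPM in sgPRMT5-2. KRT19 fell by 1.26 (adjusted p 3.25e-11). KRT17, the most abundant keratinocyte marker here, overlapped between groups, with -0.16 (adjusted p 0.0639), and passed the threshold in 5 of 14 alternative settings, among them without sgNeg replicates 1 and 2 (-0.19 and -0.21). Of 11 keratins tested in the list of chains beyond those of the basal and cornified lists, 5 were higher and 3 lower. Their median of 0.16 was 0.092 without sgNeg replicate 2, 0.29 and 0.056 without sgPRMT5-2 replicates 1 and 3, 0.075 with library totals alone and 0.33 at a minimum mean count of 10.

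The basal keratinocyte and hemidesmosome list holds the parts that tie basal cells to the basement membrane. It had 8 of 21 members higher and 7 lower, and its median of -0.031 changed sign in 2 of 14 alternative settings, to 0.013 without sgNeg replicate 1 and 0.019 without sgPRMT5-2 replicate 2, and was -0.11 with library totals alone. LAMB3, a laminin chain of that membrane, was at 324, 267 and 292 CPM in sgNeg and 608, 628 and 639 CPM in sgPRMT5-2. LAMB3 rose by 1.09 (adjusted p 4.68e-10), without overlap between groups. LAMA3, another laminin chain, was at 71.5, 55.99 and 61.7 CPM in sgNeg and 35.9, 36.6 and 30.6 CPM in sgPRMT5-2. LAMA3 fell by 0.87 on the log2 scale (adjusted p 3.35e-06). The integrin chain ITGB1 rose by 0.47. SOX2, a transcription factor of squamous progenitors, was at 17.1, 12.1 and 15.6 CPM in sgNeg and 2.30, 3.05 and 3.19 CPM in sgPRMT5-2. SOX2 fell by 2.36 (adjusted p 1e-06). COL17A1, the hemidesmosome collagen, overlapped between groups at 0.0022, with a sign that depends on the setting.

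TP63 itself was at 338, 345 and 354 CPM in sgNeg and 341, 309.6 and 333 CPM in sgPRMT5-2. The TP63 groups overlapped (log2 fold change -0.079, adjusted p 0.35), and with library totals alone the gene passed the threshold. These values are RNA. The study reports no significant change of TP63 transcripts, but less protein of the p63 isoform ΔNp63α after PRMT5 depletion. Of the 9 genes in the list of p63 and ubiquitin ligases, ITCH, FBXO30 and MDM2 were higher and 0 lower. The study reports no earlier link of FBXO30 to p63, and the call of MDM2 depends on the setting, as given with the p53 targets. ITCH, a ligase that marks p63 for degradation, was at 186, 178 and 174 CPM in sgNeg and 253, 234 and 233 CPM in sgPRMT5-2. ITCH rose by 0.42 (adjusted p 6.01e-05), with no overlap. FBXO30 rose by 0.25 (adjusted p 0.0251), a call that was lost in 4 of 14 alternative settings, among them without sgPRMT5-2 replicate 1 at the same fold. FBXW7 was at -0.18 (adjusted p 0.229).

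Cornified envelope genes are switched on as keratinocytes leave the basal layer. Only 15 of 40 had enough reads to be tested, and of these 0 were higher and 4 lower. Their median of -0.11 was -0.18 and -0.26 without sgNeg replicates 2 and 3, -0.072 without sgPRMT5-2 replicate 2 and -0.19 with library totals alone. ZNF750, 1 of those lower, was at -1.03 and lost its call without sgPRMT5-2 replicate 1 (-0.59). LY6D, a surface protein of stratified epithelium, had 35, 27 and 35 reads in sgNeg and 0, 1 and 2 reads in sgPRMT5-2. LY6D fell by 4.79 (adjusted p 2.22e-05) with all 6 libraries and was at -4.06 without sgPRMT5-2 replicate 1. PPL, the plakin periplakin, fell by 0.38, and the protease KLK7 by 1.56. Among desmosome components, which join keratinocytes to each other, 2 of 10 were higher and 3 lower, with a median of -0.11, or -0.19 with library totals alone. DSG3, a desmosomal cadherin of the lower layers, was at 50.04, 57.1 and 58.5 CPM in sgNeg and 31.1, 32.3 and 26.4 CPM in sgPRMT5-2. DSG3 fell by 0.88 (adjusted p 2.35e-06), PKP1 fell by 2.73, and PKP2 rose by 0.30.

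Clade B serpins are mostly intracellular protease inhibitors, many of them from keratinocytes. They split, with 3 of 9 higher and 5 lower, and their median of -0.31 changed sign in 2 of 14 alternative settings, without sgNeg replicate 1 (0.014) and at a minimum mean count of 10 (0.11). SERPINB13 was at 25.9, 34.1 and 28.96 CPM in sgNeg and 3.83, 4.74 and 4.20 CPM in sgPRMT5-2. SERPINB13 fell by 2.78 (adjusted p 6.87e-09) and SERPINB1, an inhibitor of neutrophil proteases, by 1.16. SERPINB7 rose by 1.38 and SERPINB8 by 1.46. Of the S100 calcium-binding proteins, 3 of 11 were higher and 3 lower, with a median of 0.024 that changed sign in 4 of 14 alternative settings. It was -0.059 with library totals alone, and -0.14 and -0.080 without sgNeg replicates 1 and 2. S100A2, a p63-linked member of basal cells, was at 751, 611 and 721 CPM in sgNeg and 1058, 1058 and 1122 CPM in sgPRMT5-2. S100A2 rose by 0.64 (adjusted p 6.07e-07), and S100A10, which binds annexin A2, fell by 1.08. S100A4 had 13, 20 and 16 reads in sgNeg and 3, 0 and 11 reads in sgPRMT5-2. Its log2 fold change of -2.67 lost its call without sgPRMT5-2 replicate 2 (-1.49) and was -3.71 without sgPRMT5-2 replicate 3.

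**Figure D2:**
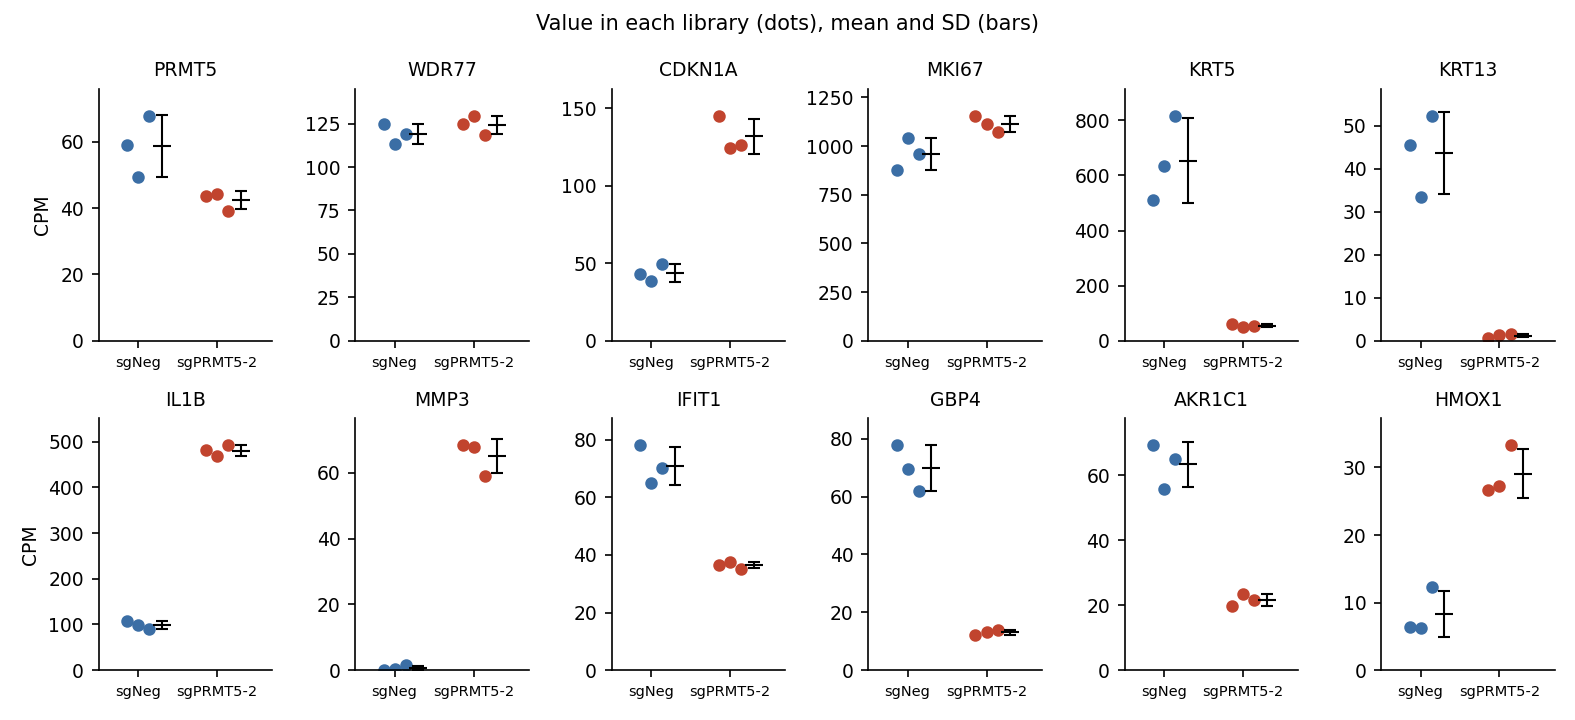
Each panel shows a gene's CPM in the 3 sgNeg libraries (blue) and the 3 sgPRMT5-2 libraries (red) on an axis from 0, with the mean and SD in black. WDR77 overlaps between groups, MKI67 is slightly higher and PRMT5 lower in every sgPRMT5-2 library, KRT5, KRT13, IFIT1, GBP4 and AKR1C1 are lower in every sgPRMT5-2 library, and CDKN1A, IL1B, MMP3 and HMOX1 are higher in every one.

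Keratinocytes store and release cytokines that alert immune and stromal cells. Of 24 cytokines and chemokines tested, 13 (54.2%) were higher and 2 lower, with a median log2 fold change of 0.36, or 0.56 without sgNeg replicate 3. Their summed level was 1366, 1000.1 and 1063 CPM in sgNeg and 2125, 2120.1 and 2203 CPM in sgPRMT5-2. IL1B (ENSG00000125538.12), the secreted form of interleukin 1, was at 107, 99.4 and 90.7 CPM in sgNeg and 481, 468 and 492 CPM in sgPRMT5-2. IL1B rose by 2.28 (SE 0.073, adjusted p 3.58e-14), with no overlap. IL1A, the form that acts as an alarm signal, was at 173, 138 and 129 CPM in sgNeg and 498, 492 and 524 CPM in sgPRMT5-2. IL1A rose by 1.79 (adjusted p 4.3e-12). LIF, a cytokine of the IL-6 family, rose by 1.64, IL6 by 1.98 and IL32 by 2.26. CSF3, the growth factor of neutrophils, had 1, 1 and 0 reads in sgNeg and 23, 14 and 12 reads in sgPRMT5-2. CXCL1, a chemokine for neutrophils, fell by 0.45, a call lost in the fit of all 15 libraries. CXCL8, counted as higher at 0.30 with overlapping groups, lost its call in 7 of 14 alternative settings. These include the fits without sgNeg replicates 2 and 3 (0.15 and 0.26) and without sgPRMT5-2 replicates 1, 2 and 3 (0.34, 0.32 and 0.31), while it was 0.50 without sgNeg replicate 1. TNFSF10, the death ligand TRAIL, was at 137, 91.2 and 100.1 CPM in sgNeg and 32.03, 39.95 and 32.9 CPM in sgPRMT5-2. TNFSF10 fell by 1.63 (adjusted p 1.4e-08).

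NF-kB factors drive many of these cytokines and also their own inhibitors. In that list 12 of 18 genes (66.7%) were higher and 2 lower, with a median of 0.40. Their summed level overlapped between groups, at 2522, 2241 and 2160.3 CPM in sgNeg and 2393, 2367 and 2381 CPM in sgPRMT5-2. TNFAIP3 (A20), an enzyme that shuts NF-kB signalling down, was at 109, 84.9 and 78.7 CPM in sgNeg and 187, 176 and 179 CPM in sgPRMT5-2. TNFAIP3 rose by 1.00 (adjusted p 6.93e-08), as did its partner TNIP1 by 0.79. The adhesion molecule ICAM1 was at 174, 115 and 116 CPM in sgNeg and 252, 265 and 259 CPM in sgPRMT5-2. ICAM1 rose by 0.96 (adjusted p 9.35e-07), and the subunits NFKB1 and RELB rose by 0.61 and 0.81. The subunit REL was lower, at -0.53. NFKBIA, the fast inhibitor, was at 0.14 (adjusted p 0.202) and passed the threshold without sgNeg replicate 1 (0.27). TNFAIP2 went against the list, at 988, 923 and 863 CPM in sgNeg and 485, 473 and 460.4 CPM in sgPRMT5-2. TNFAIP2 fell by 0.97 (adjusted p 6.68e-10).

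AP-1 and other immediate early factors answer growth and stress signals within minutes to hours. Of 21 genes, 11 were higher and 5 lower, with a median of 0.39, or 0.18 without sgNeg replicate 1. FOSL1, the FRA-1 subunit that marks invasive epithelial cells, was at 98.9, 135 and 139 CPM in sgNeg and 390.0, 387 and 409 CPM in sgPRMT5-2. FOSL1 rose by 1.68 (SE 0.093, adjusted p 6.7e-11). KLF6, a zinc finger factor, rose by 1.85 from 61.04 ± 6.11 CPM in sgNeg to 219.6 ± 9.10 CPM in sgPRMT5-2 (SD, n = 3). ATF3, a stress factor, rose by 1.17. The phosphatases DUSP1, DUSP4 and DUSP6, which switch MAP kinases off, rose by 0.76, 1.33 and 0.79. FOS, EGR1 and JUNB are among the 5 that were lower. FOS was at 441, 467 and 522 CPM in sgNeg and 331, 359 and 390.3 CPM in sgPRMT5-2. FOS fell by 0.40 (adjusted p 0.000225), a call lost in the fit of all 15 libraries, and EGR1 and JUNB fell by 0.45 and 0.73.

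Ligands of the EGF receptor are autocrine growth factors of keratinocytes. In that list 6 of 13 genes were higher and 4 lower, and the median of 0.033 became -0.050 with library totals alone and -0.026 without sgNeg replicate 3, and ranged up to 0.25 without sgPRMT5-2 replicate 3. HBEGF was at 22.1, 23.3 and 25.9 CPM in sgNeg and 127, 130.4 and 123.2 CPM in sgPRMT5-2. HBEGF rose by 2.41 (SE 0.10, adjusted p 8.26e-13). AREG rose by 1.19, TGFA by 0.69 and NRG1 by 0.94. EGFR was at 872, 924 and 847 CPM in sgNeg and 1070.2, 1024 and 992 CPM in sgPRMT5-2. The receptor rose by 0.22 (adjusted p 0.00519), and ERRFI1, its feedback inhibitor, by 0.78. BTC, another ligand, fell by 1.33, and EREG overlapped between groups at 0.033, with a sign that depends on the setting.

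Matrix proteins build the basement membrane and the stroma around tumors. Of 30 collagens, laminins and matricellular proteins, 5 were higher and 16 (53.3%) lower, with a median of -0.64. The summed level of the list was nevertheless higher, at 3117, 3459 and 3457 CPM in sgNeg and 3993, 3929.7 and 3975 CPM in sgPRMT5-2. COL4A2, a basement membrane collagen chain whose gene lies head to head with COL4A1, was at 167, 163 and 161 CPM in sgNeg and 99.00, 93.96 and 92.5 CPM in sgPRMT5-2. COL4A2 fell by 0.78 (adjusted p 6.42e-08), COL4A1 by 1.00, the laminin chain LAMA5 by 1.14 and the proteoglycan HSPG2 (perlecan) by 1.02. COL5A1 fell by 3.14. In contrast, COL12A1, a collagen that decorates fibrils, was at 89.8, 114 and 108 CPM in sgNeg and 318, 287 and 276 CPM in sgPRMT5-2. COL12A1 rose by 1.504 (adjusted p 8.35e-11), and the matricellular proteins THBS1 and CCN1 rose by 1.06 and 0.82.

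Proteases of the matrix and of plasminogen activation were 8 of 18 higher and 5 lower, with a median of 0.25, or 0.089 without sgNeg replicate 2 and 0.17 with library totals alone. PLAU, the urokinase activator, was at 381, 290.1 and 329 CPM in sgNeg and 661, 663 and 686 CPM in sgPRMT5-2. PLAU rose by 1.01 (adjusted p 5.19e-09), its receptor PLAUR by 0.78 and the collagenase MMP1 by 1.16. MMP13, another collagenase, was at 55.5, 52.6 and 52.9 CPM in sgNeg and 11.5, 12.4 and 8.07 CPM in sgPRMT5-2. MMP13 fell by 2.34 (adjusted p 3.48e-10) and MMP7 by 3.37.

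Genes of the epithelial to mesenchymal transition do not share a direction here. Of 16 tested, 7 were higher and 4 lower, and the median of 0.34 ranged from -0.075 to 0.53 over the alternative settings, with the opposite sign at a minimum mean count of 10. It was 0.53 without sgNeg replicate 1 and 0.16 without sgNeg replicate 2. CDH2, N-cadherin, was at 35.3, 30.9 and 43.1 CPM in sgNeg and 124, 111 and 116 CPM in sgPRMT5-2. CDH2 rose 3.25-fold (adjusted p 2.53e-10). CDH1, E-cadherin, rose as well, by 0.34 from 317 ± 19.03 CPM in sgNeg to 402 ± 6.35 CPM in sgPRMT5-2 (SD, n = 3). The fibronectin receptor chain ITGA5 rose by 1.27, fibronectin FN1 by 1.21, the receptor kinase AXL by 1.29 and the hyaluronan receptor CD44 by 0.74. The 4 lower members were SPARC at -3.66, S100A4 at -2.67, TGFBI at -1.21 and SNAI1 at -0.82, and the call of S100A4 depends on the setting, as given above. ZEB1, a repressor of CDH1, had 2, 5 and 0 reads in sgNeg and 8, 12 and 8 reads in sgPRMT5-2, and its log2 fold change was 2.23. That call was lost without sgNeg replicate 3 (ZEB1 at 1.34) and without sgPRMT5-2 replicate 2 (ZEB1 at 2.06), and ZEB1 was at 3.00 without sgNeg replicate 2.

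Interferon-stimulated genes encode antiviral proteins, and many tumor lines hold them at a base level without added interferon. Of 41 tested, 30 (73.2%) were lower, beside 19.3% of all genes, and 1 was higher. Their median was -0.71, and their summed level was 4249.8, 3656 and 3915 CPM in sgNeg and 2771, 2774 and 2796 CPM in sgPRMT5-2. All 3 sgPRMT5-2 sums lay below the lowest sgNeg sum. DDX60 (ENSG00000137628.18), a helicase that aids sensing of viral RNA, was at 157, 169 and 158 CPM in sgNeg and 77.9, 75.3 and 70.6 CPM in sgPRMT5-2. DDX60 fell by 1.11 (SE 0.076, adjusted p 1.15e-09). TRIM22, an antiviral ligase whose annotation overlaps TRIM5, was at 46.8, 40.97 and 38.4 CPM in sgNeg and 9.20, 9.65 and 9.25 CPM in sgPRMT5-2. TRIM22 fell by 2.16 (adjusted p 1.24e-09).

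IFIT1, which binds viral RNA that lacks the host cap, was at 78.1, 64.97 and 70.1 CPM in sgNeg and 36.6, 37.4 and 35.3 CPM in sgPRMT5-2. IFIT1 fell by 0.96 (adjusted p 2.28e-07). IFITM3, which blocks viral entry and is close in sequence to IFITM1, was at 467, 358 and 402 CPM in sgNeg and 226, 222 and 225 CPM in sgPRMT5-2. IFITM3 fell by 0.86 (adjusted p 8.87e-08). OAS2, a sensor of double-stranded RNA, fell by 2.04, MX2 by 2.15, RSAD2 (viperin) by 1.55 and IFI44L by 1.24. STAT2, a factor that drives this list, fell by 0.67. ISG20, an RNA exonuclease, was the 1 member that rose, by 0.67. Of the 10 not called, ISG15, a ubiquitin-like protein, was at 0.18 (adjusted p 0.123) and passed without sgPRMT5-2 replicate 1 (0.27), and BST2 (tetherin) was at -0.0034 (adjusted p 0.984) with a sign that depends on the setting. IRF7 fell by 0.93, a call lost in 4 of 14 alternative settings, among them without sgNeg replicate 2 (-0.78) and without sgPRMT5-2 replicates 1 and 3 (-0.83 and -0.87).

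The ISRE is a known element of such genes. The promoters of 4 lower members are shown, picked by smallest adjusted p among members whose promoter holds its core. The ISRE core, 2 copies of GAAA separated by 2 bases of any kind, was searched on both strands of the RefSeq promoters (GRCh38.p14, 250 bases before to 50 after the start). Of the 42 genes of the list, 34 have a promoter in that table, 46 promoters in all. The core was found in 27 of these (58.7%) and in 1255 of all 35116 promoters (3.57%). Of tested members, 23 have a promoter with the core, and 17 of these were lower with a median of -0.51. Of 10 without it, 6 were lower with a median of -0.71, and another without it, IRF9, was not tested. A match is a description and not a measured site. In the sequences below, written 5′ to 3′ along the gene, capitals mark each match, or its complement where it lies on the other strand. DDX60 lies on the minus strand at chr4:168318703-168319002, IFITM3 on the minus strand at chr11:320811-321110, IFIT1 on the plus strand at chr10:89392373-89392672 and IFI44L on the plus strand at chr1:78620198-78620497.
DDX60: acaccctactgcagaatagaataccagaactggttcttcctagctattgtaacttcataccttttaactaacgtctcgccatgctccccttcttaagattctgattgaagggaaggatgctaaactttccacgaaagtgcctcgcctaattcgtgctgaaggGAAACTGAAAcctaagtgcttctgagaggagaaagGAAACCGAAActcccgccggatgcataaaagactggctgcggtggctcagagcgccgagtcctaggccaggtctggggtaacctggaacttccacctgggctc
IFITM3: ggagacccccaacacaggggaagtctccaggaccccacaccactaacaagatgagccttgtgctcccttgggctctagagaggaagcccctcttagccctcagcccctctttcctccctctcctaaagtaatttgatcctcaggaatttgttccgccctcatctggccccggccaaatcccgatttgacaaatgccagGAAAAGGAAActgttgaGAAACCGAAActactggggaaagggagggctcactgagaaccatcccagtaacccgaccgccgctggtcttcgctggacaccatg
IFIT1: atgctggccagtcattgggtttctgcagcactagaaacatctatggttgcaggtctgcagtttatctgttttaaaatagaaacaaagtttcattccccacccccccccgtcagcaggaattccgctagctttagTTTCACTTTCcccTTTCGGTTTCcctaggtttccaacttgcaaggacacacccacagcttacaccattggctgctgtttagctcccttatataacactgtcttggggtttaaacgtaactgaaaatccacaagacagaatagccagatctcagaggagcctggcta
IFI44L: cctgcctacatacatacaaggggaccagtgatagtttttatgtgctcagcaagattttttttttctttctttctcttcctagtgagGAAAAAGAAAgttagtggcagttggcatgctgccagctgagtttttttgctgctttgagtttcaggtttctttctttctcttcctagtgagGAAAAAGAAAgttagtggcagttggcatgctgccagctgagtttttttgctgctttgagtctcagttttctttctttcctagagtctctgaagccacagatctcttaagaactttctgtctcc

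Guanylate-binding proteins are GTPases that answer interferon gamma through IRF1. Of 6 genes tested in that list, 0 were higher and 5 lower, with a median of -1.31. GBP4 was at 77.8, 69.7 and 62.1 CPM in sgNeg and 12.3, 13.04 and 13.8 CPM in sgPRMT5-2. GBP4 fell by 2.42 (SE 0.13, adjusted p 6.95e-11). GBP2 fell by 1.77. IRF1 was at 61.9, 55.8 and 65.5 CPM in sgNeg and 34.5, 35.04 and 30.9 CPM in sgPRMT5-2. IRF1 fell by 0.86 (adjusted p 1.32e-06).

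MHC class I molecules show peptides from the proteasome on the cell surface. Of 16 genes of that pathway, 0 were higher and 7 (43.8%) lower, with a median of -0.23, or -0.14 without sgNeg replicate 1. The lower genes include the immunoproteasome subunits PSMB8, PSMB9 and PSMB10, and HLA-F, at -1.08. PSMB9 was at 36.01, 26.8 and 30.8 CPM in sgNeg and 12.9, 13.9 and 15.3 CPM in sgPRMT5-2. PSMB9 fell by 1.14 (adjusted p 3.6e-06), PSMB8 beside it by 0.90 and PSMB10 by 1.41. B2M, the light chain of all class I molecules, was at 348, 291 and 297 CPM in sgNeg and 243, 234 and 254 CPM in sgPRMT5-2. B2M fell by 0.35 (adjusted p 0.000869), a call lost in the fit of all 15 libraries.

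CD74, the chaperone of class II molecules, had 70, 42 and 55 reads in sgNeg and 7, 8 and 5 reads in sgPRMT5-2. CD74 fell by 3.02 (adjusted p 9.35e-06). HLA-DRA, a class II chain, had 13, 6 and 12 reads in sgNeg and 0 in all 3 sgPRMT5-2 libraries, at least 3.51-fold lower against the floor of 3 counts per library. CIITA, the master factor of class II genes, had 16, 16 and 20 reads in sgNeg and 8, 7 and 4 reads in sgPRMT5-2, and its call was lost without sgPRMT5-2 replicate 3 (-1.48 with all libraries, -1.21 without it). All 5 tested genes of this list were lower, with a median of -2.14, or -1.81 with HLA-DRA at its bound and -1.30 without sgPRMT5-2 replicate 3.

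Most cell cycle genes differed little in size, and the CDK inhibitor p21 differed more. CDKN1A (ENSG00000124762.14), which encodes p21, was at 42.9, 38.7 and 49.8 CPM in sgNeg and 145, 124 and 127 CPM in sgPRMT5-2. CDKN1A rose by 1.599 (SE 0.10, adjusted p 2.72e-10), 3.03-fold, with no overlap. MKI67, the proliferation marker Ki-67, was at 875, 1043 and 961 CPM in sgNeg and 1154, 1113 and 1071 CPM in sgPRMT5-2. MKI67 values in sgPRMT5-2 all lay above sgNeg (log2 fold change 0.22, adjusted p 0.0122), a call that was lost with library totals alone and in the fit of all 15 libraries. In the list of CDK inhibitors, cyclins and G1 regulators 8 of 24 genes were higher and 3 lower, with a median of 0.12, or 0.041 with library totals alone.

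Its members include inhibitors that moved in opposite directions. CDKN1B (p27) was at 101, 95.7 and 93.6 CPM in sgNeg and 64.4, 65.7 and 63.2 CPM in sgPRMT5-2. CDKN1B fell by 0.58 (adjusted p 7.61e-06), CDKN2C (p18) fell by 0.87, and CDKN2A (p16 and ARF) rose by 0.69. The cyclins CCND1 and CCND2, which drive G1, rose by 0.31 and 0.70. E2F7, a repressor of E2F targets, rose by 0.62, and RBL2 (p130), a pocket protein of resting cells, fell by 0.57. MYC was at -0.10 (adjusted p 0.266).

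DNA replication genes had 14 of 38 members (36.8%) higher and 3 lower, with a median of 0.18, or 0.097 with library totals alone. CDC6, which loads the replicative helicase, was at 121, 114 and 142 CPM in sgNeg and 178, 183 and 185 CPM in sgPRMT5-2. CDC6 rose by 0.54 (adjusted p 1.92e-05). MCM10 rose by 0.55, the helicase subunit MCM3 by 0.32, the ribonucleotide reductase subunit RRM2 by 0.37 and UHRF1, which guides DNA methylation to new strands, by 0.53. PCNA, the sliding clamp, was at 0.14 (adjusted p 0.179) and passed the threshold without sgNeg replicate 3 (0.23). Mitosis genes had 17 of 40 members (42.5%) higher and 1 lower, with a median of 0.18, or 0.12 without sgNeg replicate 2 and 0.10 with library totals alone. FOXM1, the factor that drives this program, rose by 0.56 from 207 ± 24.6 CPM in sgNeg to 302 ± 8.30 CPM in sgPRMT5-2 (SD, n = 3). CCNB1 and PLK1 rose by 0.40 and 0.38, while CDK1, the kinase partner of CCNB1, was at 172, 172 and 182 CPM in sgNeg and 138, 137 and 134 CPM in sgPRMT5-2. CDK1 fell by 0.36 (adjusted p 0.000333).

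E2F factors drive the replication genes. The E2F sites TTTCCCGC and TTTGGCGC were searched on both strands of the same RefSeq promoters. At least 1 was found in 16 of the 44 promoters of this list (36.4%) and in 797 of all promoters (2.27%). Tested members with a site were 6 of 16 higher, and those without were 7 of 18 higher. From the members with a site, the promoters of CDC6 (plus strand, chr17:40287629-40287928) and UHRF1 (plus strand, chr19:4909251-4909550) are shown. The site, or its complement, is in capitals.
CDC6: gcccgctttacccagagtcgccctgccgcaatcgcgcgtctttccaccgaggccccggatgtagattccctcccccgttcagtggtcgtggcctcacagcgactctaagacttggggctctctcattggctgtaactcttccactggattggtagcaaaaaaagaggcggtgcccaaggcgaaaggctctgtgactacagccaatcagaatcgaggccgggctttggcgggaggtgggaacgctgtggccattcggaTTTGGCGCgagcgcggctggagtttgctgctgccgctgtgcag
UHRF1: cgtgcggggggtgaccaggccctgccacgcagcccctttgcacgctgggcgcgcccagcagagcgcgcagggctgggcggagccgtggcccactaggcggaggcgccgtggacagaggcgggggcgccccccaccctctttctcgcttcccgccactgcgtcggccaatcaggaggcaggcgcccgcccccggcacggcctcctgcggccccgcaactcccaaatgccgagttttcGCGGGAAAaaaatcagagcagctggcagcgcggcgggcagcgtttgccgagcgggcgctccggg

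Repair by homologous recombination had 6 of 31 members higher and 1 lower, with a median of 0.028 that became -0.053 with library totals alone and -0.019 without sgNeg replicate 1, and ranged up to 0.092 without sgPRMT5-2 replicate 3. RAD51C rose by 0.63 and FANCL fell by 0.60.

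The study states that its cell lines, HSC-5 among them, carry inactivating mutations of p53. Targets of p53 include brakes of the cell cycle, repair genes and death genes. Of 28 tested, 12 were higher and 8 lower, both above the shares of all genes, with a median of 0.17, or 0.10 without sgNeg replicate 3 and 0.083 with library totals alone. GADD45A, a stress brake of the cycle, was at 39.1, 50.9 and 55.4 CPM in sgNeg and 150.3, 148 and 152 CPM in sgPRMT5-2. GADD45A rose by 1.65 (SE 0.10, adjusted p 2.14e-10). AEN, a nuclease of cell death, rose by 1.19, TIGAR by 1.15, SESN2 by 1.35 and the secreted factor GDF15 by 0.92. DDB2, which recognizes ultraviolet damage, was at 66.6, 68.1 and 71.3 CPM in sgNeg and 38.5, 33.4 and 39.3 CPM in sgPRMT5-2. DDB2 fell by 0.89 (adjusted p 4.38e-07) and BTG2, a brake of proliferation, by 0.55, a call lost in the fit of all 15 libraries. Of the other lower members, SPATA18 lost its call in 5 alternative settings, among them without sgNeg replicate 1 (-1.124) and without sgPRMT5-2 replicates 1, 2 and 3 (-1.56, -1.45 and -1.44). TP53INP1 lost it in 3, among them without sgPRMT5-2 replicates 2 and 3 (-1.18 and -1.18). MDM2, the p53 ligase, was at 0.20, and its call was lost in 7 of 14 alternative settings, among them without sgNeg replicates 1 and 3 (0.19 and 0.16) and without sgPRMT5-2 replicates 1 and 2 (0.22 and 0.17). Of the BCL2 family, which decides on cell death at mitochondria, 4 of 15 were higher and 3 lower. The median of that family, -0.0085, changed sign in 8 of 14 alternative settings and ranged from -0.026 to 0.11 with each library left out in turn. BCL2L1 (BCL-XL), a protector, was at 59.7, 51.7 and 61.2 CPM in sgNeg and 112, 119 and 124 CPM in sgPRMT5-2. BCL2L1 rose by 1.05 (adjusted p 1.39e-08). Death promoters moved both ways: PMAIP1 and BAX rose by 0.47 and 0.51, while BMF, BOK and BCL2L11 fell by 2.19, 0.80 and 0.51. BMF had 11, 11 and 10 reads in sgNeg and 2, 4 and 1 reads in sgPRMT5-2, and its call was lost in the fit of all 15 libraries.

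The best known substrates of PRMT5 are Sm proteins, which the SMN complex assembles into spliceosomal particles. Of 20 genes of these groups, 6 (30.00%) were higher and 0 lower, with a median of 0.17, or 0.089 with library totals alone. STRAP, a member of the SMN complex, was at 346, 321 and 371 CPM in sgNeg and 491, 504 and 517 CPM in sgPRMT5-2. STRAP rose by 0.55 (adjusted p 2.29e-06), the helicase DDX20 by 0.55 and GEMIN5, which recognizes the small nuclear RNAs, by 0.51. SNRPB, a shared core protein, was at 0.26, a call lost without sgNeg replicate 2 (0.16), with library totals alone and in the fit of all 15 libraries.

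SR and hnRNP proteins choose splice sites. Of 31 tested, 14 (45.2%) were higher and 0 lower, with a median of 0.18, or 0.10 with library totals alone. U2AF2, which reads the tract before the 3′ splice site, was at 176, 182 and 242 CPM in sgNeg and 343, 335 and 329.8 CPM in sgPRMT5-2. U2AF2 rose by 0.77 (adjusted p 1.5e-06). PTBP1, a repressor of exons, rose by 0.46, HNRNPM by 0.46 and SF3B1, a core factor at the branch point, by 0.31. These are gene totals, so use of single exons was not measured.

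The integrated stress response raises amino acid supply through the factor ATF4. In its list, with the tRNA synthetases, 21 of 29 genes (72.4%) were higher and 2 lower, with a median of 0.36. The list summed to 6880.2, 6679 and 7729 CPM in sgNeg and 8253, 8292 and 8474 CPM in sgPRMT5-2. MARS1, the methionine synthetase, was at 183, 182 and 226 CPM in sgNeg and 299, 298 and 296 CPM in sgPRMT5-2. MARS1 rose by 0.61 (adjusted p 4.14e-06) and IARS1 by 0.55. CHAC1, which degrades glutathione, rose by 1.35, ASNS, which makes asparagine, by 0.86, TRIB3 by 0.66 and ATF4 by 0.30. The members that fell were DDIT4, a brake of mTOR, and WARS1, a synthetase that interferon also induces. DDIT4 was at 575, 483 and 474 CPM in sgNeg and 266, 253 and 272 CPM in sgPRMT5-2. DDIT4 fell by 0.95 (adjusted p 7.39e-09) and WARS1 by 0.39. Chaperones of the unfolded protein response had 5 of 16 higher and 0 lower, with a median of 0.12, or 0.043 without sgNeg replicate 2 and 0.033 with library totals alone. HSPA5 (BiP), the main chaperone of the endoplasmic reticulum, was at 784, 712 and 849 CPM in sgNeg and 1139.6, 1166 and 1203 CPM in sgPRMT5-2. HSPA5 rose by 0.59 (adjusted p 7.67e-07) and HERPUD1 by 0.86.

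NRF2 drives antioxidant and detoxifying enzymes. Of 26 genes, 3 were higher and 17 (65.4%) lower, with a median of -0.26. AKR1C1, a reductase of steroids and aldehydes with near-identical neighbors, was at 69.3, 55.8 and 65.2 CPM in sgNeg and 19.8, 23.5 and 21.7 CPM in sgPRMT5-2. AKR1C1 fell by 1.55 (adjusted p 4.6e-09), AKR1C2 by 3.55, or was at -2.91 without sgPRMT5-2 replicate 1. AKR1B10 fell by 3.58 with all 6 libraries, and its log2 fold change without each sgPRMT5-2 replicate in turn was -1.98, -4.19 and -4.46. GCLC, which starts glutathione synthesis, was at 285, 286 and 305 CPM in sgNeg and 188, 168 and 191 CPM in sgPRMT5-2. GCLC fell by 0.68 (adjusted p 2.85e-07) and NQO1, a quinone reductase, by 0.24. HMOX1, which breaks down heme, was at 6.42, 6.20 and 12.3 CPM in sgNeg and 26.7, 27.3 and 33.3 CPM in sgPRMT5-2. HMOX1 rose by 1.88 (adjusted p 5.45e-07), against most of its list.

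Genes of cholesterol and fatty acid synthesis had 7 of 32 higher and 7 lower, with a median of 0.0022 that changed sign in 4 of 14 alternative settings. It was -0.081 with library totals alone, -0.0092 with RLE size factors and -0.059 without sgNeg replicate 2, and ranged up to 0.090 without sgNeg replicate 1. ACLY, which makes cytosolic acetyl-CoA, was at 441, 382 and 419 CPM in sgNeg and 567, 563 and 544 CPM in sgPRMT5-2. ACLY rose by 0.43 (adjusted p 2.73e-05) and FASN, which builds palmitate, by 0.31. TM7SF2, a sterol reductase, fell by 1.68, and the desaturase SCD by 0.26.

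Hypoxia and glycolysis genes had 10 of 32 higher and 11 lower, with a median of -0.10, or -0.058 without sgNeg replicate 1, -0.063 without sgPRMT5-2 replicate 2 and -0.18 with library totals alone. EGLN3, a prolyl hydroxylase induced in hypoxia, was at 64.6, 47.7 and 50.9 CPM in sgNeg and 24.5, 17.9 and 21.7 CPM in sgPRMT5-2. EGLN3 fell by 1.34 (adjusted p 2.62e-07), the carbonic anhydrase CA9 by 1.24 and BNIP3L by 0.77. VEGFA, the growth factor of vessels, was at 273, 289.6 and 262 CPM in sgNeg and 416, 431 and 441 CPM in sgPRMT5-2. VEGFA rose by 0.64 (adjusted p 2.14e-07).

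Lysosome and autophagy genes had 7 of 29 higher and 12 (41.4%) lower, and their median of -0.026 changed sign without sgNeg replicate 1 (0.011) and reached -0.10 without sgNeg replicate 2 and -0.11 with library totals alone. CTSD, a lysosomal protease, was at 231, 189.8 and 206 CPM in sgNeg and 75.9, 78.9 and 84.7 CPM in sgPRMT5-2. CTSD fell by 1.38 (SE 0.084, adjusted p 2.19e-10) and CTSH to 45.7% of its sgNeg mean. SQSTM1 (p62), an autophagy receptor, rose by 0.78.

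Notch receptors and their targets act in the switch of keratinocytes from basal to suprabasal. In that list 3 of 15 genes were higher and 7 lower, and the median of -0.021 changed sign in 3 of 14 alternative settings, to 0.037 without sgNeg replicate 3 and to 0.019 and 0.014 without sgPRMT5-2 replicates 2 and 3. It was -0.23 at a minimum mean count of 10 and -0.10 with library totals alone. NOTCH3 was at 169, 161 and 154 CPM in sgNeg and 53.5, 54.7 and 58.8 CPM in sgPRMT5-2. NOTCH3 fell by 1.54 (SE 0.080, adjusted p 2.86e-11), NOTCH1 by 0.50 and the ligand JAG2 by 0.63, while NOTCH2 rose by 0.36. NRARP, a feedback target of the pathway, was at 192, 164 and 185 CPM in sgNeg and 59.2, 59.4 and 58.5 CPM in sgPRMT5-2. NRARP fell by 1.61 (adjusted p 2.48e-11) and HES1, a repressor, by 0.44.

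TGF-beta and BMP signalling genes had 5 of 21 higher and 6 lower, and the median of 0.025 became -0.058 with library totals alone and -0.042 without sgNeg replicate 3, and ranged up to 0.088 without sgNeg replicate 1. ID1, a target of BMPs that blocks differentiation factors, was at 196, 168 and 159.8 CPM in sgNeg and 53.6, 48.4 and 54.8 CPM in sgPRMT5-2. ID1 fell by 1.73 (SE 0.092, adjusted p 3.64e-11), and the ligand BMP7 fell by 2.49. TGFB2 and the receptor TGFBR2 rose by 0.90 and 0.75. Of Wnt pathway genes, 3 of 17 were higher and 8 lower, with a median of -0.67, or -0.40 without sgNeg replicate 2, -0.38 without sgPRMT5-2 replicate 1 and -0.23 at a minimum mean count of 10. Their summed level overlapped, at 394, 385 and 388 CPM in sgNeg and 392, 384 and 395 CPM in sgPRMT5-2. DKK1, a secreted Wnt inhibitor, was at 41.3, 38.8 and 45.3 CPM in sgNeg and 78.3, 84.8 and 83.2 CPM in sgPRMT5-2. DKK1 rose by 0.98 (adjusted p 7.19e-08), while DKK3 fell by 1.96 and the ligand WNT4 by 1.82.

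**Figure D3:**
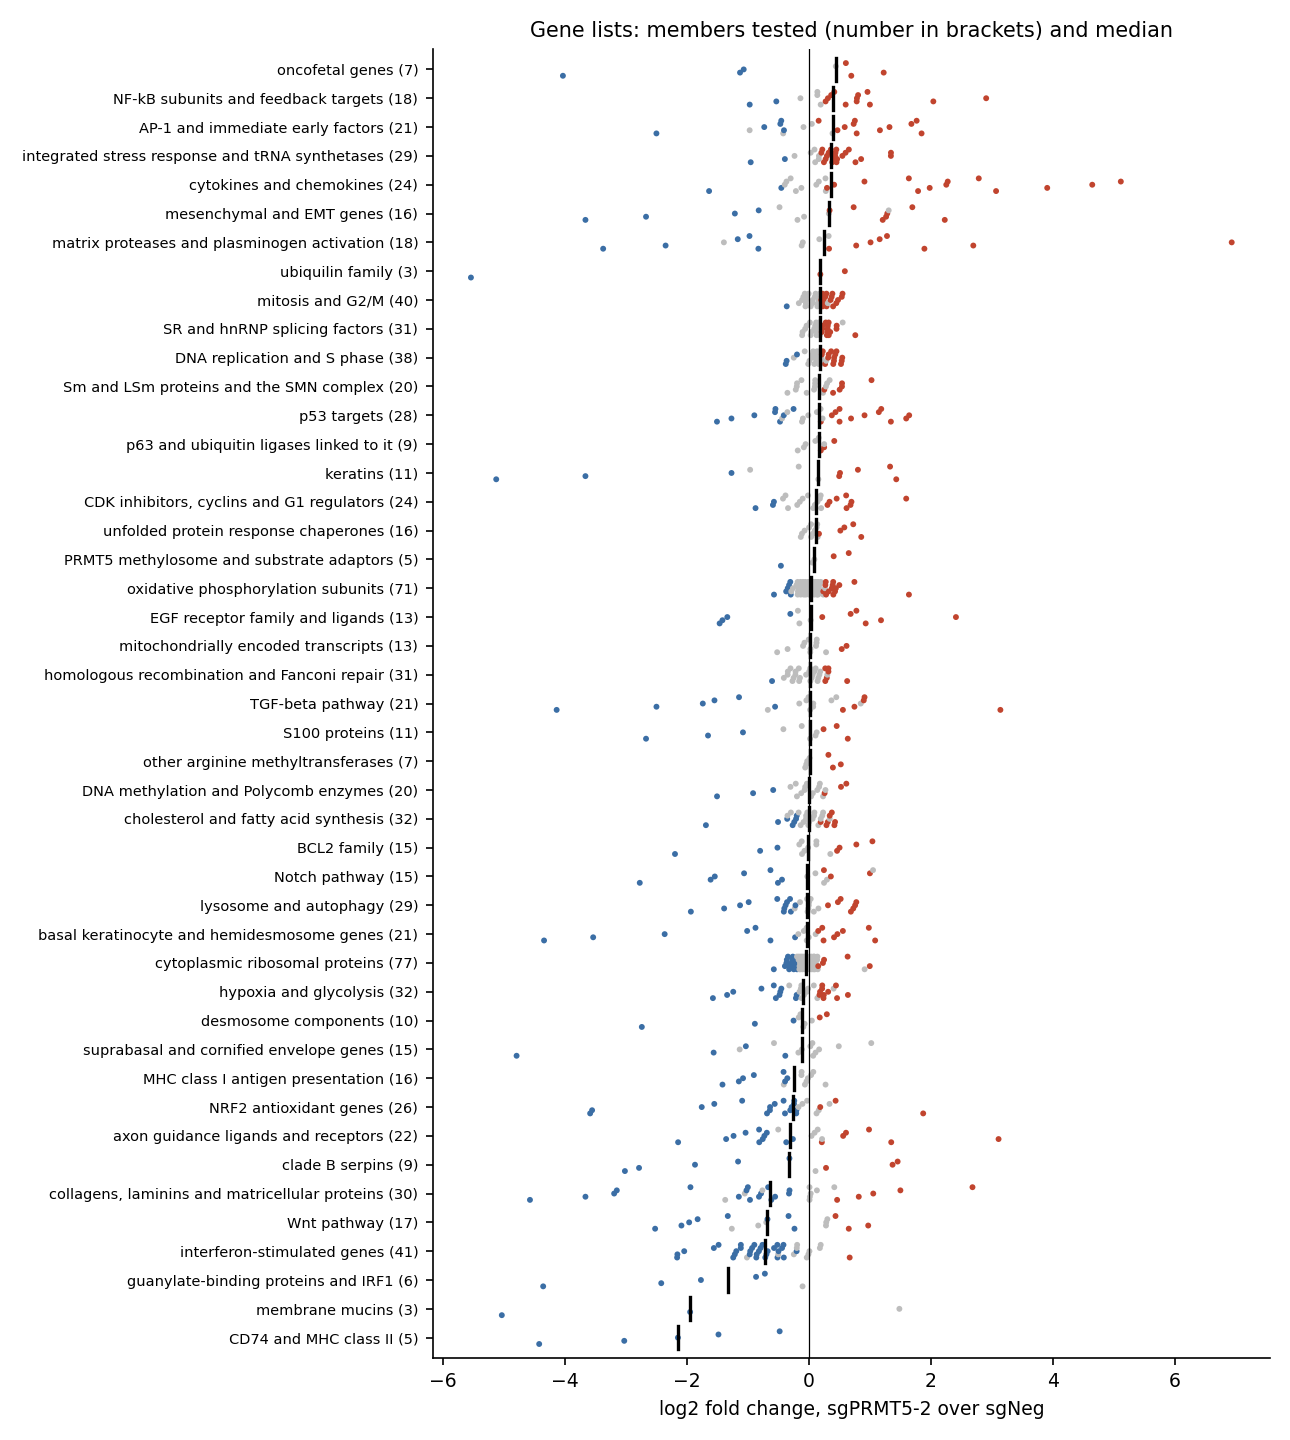
Each dot is a tested member of a gene list, at its log2 fold change, sgPRMT5-2 over sgNeg, with red for called higher, blue for called lower and gray for not called; black bars are the medians by which the 45 lists are sorted. The lists of class II genes, mucins and guanylate-binding proteins lie lowest, and oncofetal genes, NF-kB and AP-1 factors highest. The oncofetal list was split, with 3 of 7 members higher and 3 lower.

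The other PRMT5 guide gives values beside these. Both comparisons with sgNeg share the same 3 control libraries, so they are given side by side, and a difference between the guides is read only from the test of sgPRMT5-2 against sgPRMT5-1, which shares the sgPRMT5-2 libraries. Against sgNeg, sgPRMT5-1 had 214 genes higher (1.52%) and 316 lower (2.24%) of 14102. Between the guides, 1389 genes were higher in sgPRMT5-2 (9.94%) and 1301 lower (9.31%) of 13976. These counts rest on sgPRMT5-1 replicate 3 among others: without it 2365 genes were higher and 2346 lower, and without each other library in turn 699 to 854 were higher and 704 to 827 lower. The chi-square per degree of freedom was 2.02 between sgPRMT5-1 replicates 1 and 2, and 6.04 and 5.38 between these and replicate 3. Reads outside genes made up 3.33%, 3.38% and 2.75% of listed reads in sgPRMT5-1 and 4.26%, 4.13% and 4.03% in sgPRMT5-2. Mitochondrially encoded transcripts were 10 of 13 higher and 0 lower between the guides, with a median against sgNeg of 0.030 with sgPRMT5-2 and -0.47 with sgPRMT5-1. Whether RNA quality bears on the other differences between the guides was not tested.

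PRMT5 itself had log2 fold changes against sgNeg of -0.45 with sgPRMT5-2 and -0.69 (adjusted p 0.00525) with sgPRMT5-1, and between guides it was 0.23 (adjusted p 0.146). Interferon-stimulated genes had 1 of 40 members higher and 30 lower in sgPRMT5-2 than in sgPRMT5-1. Their median against sgNeg was -0.71 with sgPRMT5-2 and -0.10 with sgPRMT5-1. DDX60 differed between guides by -1.06 (adjusted p 2.47e-06), from -1.11 and -0.057 against sgNeg. MHC class I genes had 0 of 16 higher and 7 lower between guides, and guanylate-binding proteins 0 of 5 higher and 4 lower.

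Cytokines had 12 of 24 higher and 2 lower in sgPRMT5-2 than in sgPRMT5-1, and their median against sgNeg was 0.36 and 0.16. IL1B was at 2.28 with sgPRMT5-2 and 1.26 with sgPRMT5-1, and differed between them by 1.02 (adjusted p 2.35e-10). FOSL1 was at 1.68 and 0.49, with a difference of 1.20 (adjusted p 1.73e-09), in a list of which 10 of 21 were higher and 2 lower between guides. HBEGF was at 2.41 and 0.74, with a difference of 1.67 (adjusted p 1.11e-10). NRF2 genes had 1 of 26 higher and 12 lower between guides, and hypoxia and glycolysis genes 1 of 32 higher and 12 lower.

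Among keratins the guides differ for some chains. KRT5 was at -3.53 with sgPRMT5-2 and -1.28 with sgPRMT5-1, a difference of -2.26 (adjusted p 8.22e-11). KRT13 was at -5.12 and -5.03, and its difference of -0.090 did not pass the test (adjusted p 0.926). CD74 was at -3.02 and -3.68, with a difference of 0.66 (adjusted p 0.413). CDKN1A was at 1.599 and 0.56, with a difference of 1.04 (adjusted p 9.31e-07). MMP1 fell with sgPRMT5-1, at -0.78 (adjusted p 0.0469), and rose with sgPRMT5-2, at 1.16, a difference of 1.94 (adjusted p 1.73e-09). Replication genes had 3 of 38 higher and 2 lower between guides, and mitosis genes 1 of 40 higher and 2 lower.

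**Figure D4:**
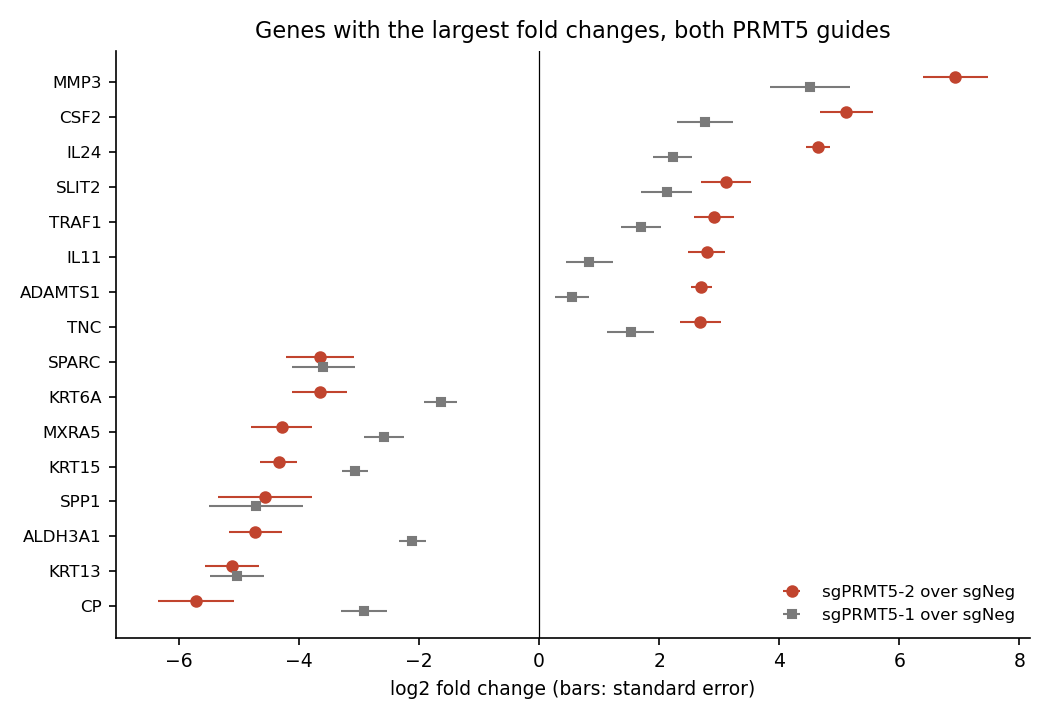
The 16 genes picked for the largest fold changes among those that reach 10 CPM are shown at their log2 fold change against sgNeg, with sgPRMT5-2 in red and sgPRMT5-1 in gray, and bars for the standard error; both guides are compared with the same sgNeg libraries. MMP3 lies at 6.93 with sgPRMT5-2 and at 4.51 with sgPRMT5-1, and KRT13 at -5.12 and -5.03.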

How the data were processed

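Alignment (STAR, hg38) and counting (htseq-count) were done by the authors. Their deposited tables give a whole number of reads for each gene, before any scaling. The strand setting and the annotation release are not stated, so genes that overlap others and near-identical copies are uncertain: 43 of the 274 named genes overlap another gene with at least 5% of their counts. The paper names a TruSeq RNA v2 kit and the labels a stranded mRNA protocol. Reads on genes numbered 5434211 to 6730428 per library. The 5 summary entries per library were left out. The fit held the 6 libraries only, with limma voom (limma 3.58.1, R 4.3.3), TMM factors computed with 0.3 of log ratios and 0.05 of mean levels trimmed, and genes with a mean normalized count of at least 3. A negative binomial count test, DESeq2 or edgeR, was not used, because the check of the unit could not read the count column of these tables. Tables and figures used Python 3.11.15, pandas 2.3.3, numpy 2.4.6 and matplotlib 3.10.9. Coordinates come from GENCODE for GRCh38 and promoters from RefSeq.

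Named genes were those the study names, in each direction the 8 with the largest fold among called genes that do not overlap and reach 10 CPM in the higher group, the 6 with the largest difference of mean CPM, and of each of 45 lists the 3 with the smallest adjusted p. Other members whose role is described were picked after their values were seen. COL17A1, EREG and BST2 were dropped from an earlier choice once their near-0 values were seen to change sign between settings, and were put back so that the counts of stability include them. All members and lists were chosen with earlier results of these data known. The alternatives were 3 other scalings, no filter, the replicate number as a block, a filter at a mean count of 10, limma-trend with a prior count of 2, a fit of all 15 libraries, and each library left out in turn. Genes of chromosome Y and some of the named genes are not reported here, and counts over named genes and lists include the latter.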

Additional observations from a re-analysis of the deposited data

How the results depend on the processing

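Of the 274 named genes, 257 passed the threshold, and 233 of these passed it in every one of the 14 alternative settings that tested them. The other 24 lost the call in at least 1 setting, 10 genes that had not passed did so in at least 1, and 4 genes, none of them called, changed sign. The called genes were mostly picked for their small adjusted p or large fold, or after their values were seen, so these counts do not describe genes at large. WDR77 went from 0.062 to -0.020 with library totals alone. EREG went from 0.033 to -0.050 with library totals alone and to -0.026 without sgNeg replicate 3, and was 0.074 without sgPRMT5-2 replicate 3. COL17A1 went from 0.0022 to -0.0088 with RLE size factors, -0.080 with library totals alone, -0.020 without sgNeg replicate 1, -0.0072 without sgNeg replicate 2 and -0.0089 without sgPRMT5-2 replicate 1, and was 0.057 without sgPRMT5-2 replicate 2. BST2 went from -0.0034 to 0.0097 with upper quartile scaling, 0.0037 in the fit of all 15 libraries, 0.159 without sgNeg replicate 1, 0.062 without sgPRMT5-2 replicate 1 and 0.050 without sgPRMT5-2 replicate 2, and was -0.13 without sgNeg replicate 2; the cause was not tested. Of 45 list medians, 29 kept their sign in every setting. With library totals alone the median of all tested genes was -0.082 and every list median was lower than before. Genes higher were 2960, 2896 with RLE size factors, 3138 with upper quartile scaling and 2292 with library totals alone, where 3517 were lower, so that 39.5% of calls were higher in place of 52.0%. With the replicate number as a block, 2896 genes were higher and 2742 lower. Deviations of same-numbered libraries from their group means correlated at -0.0403, -0.0057 and 0.009 over 11903 genes. Leaving out each library gave 2678 to 2882 genes higher, 1987 to 2867 lower, 305 to 356 higher and 751 to 923 lower by at least 2-fold. With a minimum mean count of 10, genes at least 2-fold higher were 221 in place of 339, with 11903 genes tested in place of 14184. Between the guides, leaving out each library gave 699 to 2365 higher and 704 to 2346 lower. The highest values came without sgPRMT5-1 replicate 3, and the values without sgPRMT5-1 replicates 1 and 2 were 699 and 854 higher and 730 and 827 lower, and without sgPRMT5-2 replicates 1, 2 and 3 they were 759, 773 and 816 higher and 704, 747 and 786 lower; the cause was not tested.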

Other observations

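Of the oncofetal genes, 3 of 7 tested were higher and 3 lower, with a median of 0.45. That median is the value of the 1 member not called, so it does not describe a shared direction. HMGA2, a chromatin protein of embryonic cells, was at 22.5, 38.03 and 30.95 CPM in sgNeg and 70.7, 68.6 and 71.3 CPM in sgPRMT5-2. HMGA2 rose by 1.23 and its relative HMGA1 by 0.70, while the RNA-binding protein IGF2BP3 fell to 45.8% of its sgNeg mean and the long RNA H19 by 4.03. Axon guidance genes, which also steer epithelial and endothelial cells, had 6 of 22 higher and 11 lower, with a median of -0.31, or -0.14 without sgPRMT5-2 replicate 2, while their summed level was 1285, 1197 and 1242 CPM in sgNeg and 1405, 1384 and 1351 CPM in sgPRMT5-2. EPHA2, an ephrin receptor, rose by 0.99, and SEMA3A, NTN4 and UNC5B fell by 1.23, 1.35 and 2.14. Of 3 tested membrane mucins, 0 were higher and 2 lower, with a median of -1.94, or -3.49 at a minimum mean count of 10. The other member, MUC13, was at 1.49, was not called, and passed the threshold without sgPRMT5-2 replicate 3. MUC1 was at 25.2, 19.9 and 18.1 CPM in sgNeg and 5.21, 5.25 and 5.72 CPM in sgPRMT5-2. MUC16 had 26, 55 and 38 reads in sgNeg and 1, 2 and 0 reads in sgPRMT5-2, and its log2 fold change of -5.03 became -4.39 without sgPRMT5-2 replicate 3. UBQLN2, a ubiquilin that shuttles proteins to the proteasome, had 30, 15 and 23 reads in sgNeg and 0 in all 3 sgPRMT5-2 libraries, at least 7.67-fold lower against the floor of 3 counts per library. Of the ubiquilin family, 2 of 3 were higher and 1 lower, with a median of 0.19, or 0.11 with library totals alone. With UBQLN2 at its bound the median of 0.19 is the same. That median is UBQLN1, whose call was lost in 4 of 14 alternative settings, among them without sgNeg replicate 1 (0.17) and without sgPRMT5-2 replicate 2 (0.20). UBQLN4 rose by 0.59.

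Enzymes of DNA methylation and Polycomb had 3 of 20 higher and 3 lower, and their median of 0.0062 became -0.077 with library totals alone, -0.0057 with RLE size factors and -0.039 without sgNeg replicate 2, and ranged up to 0.078 without sgPRMT5-2 replicate 2. DNMT1, which copies methylation to new strands, was at 165, 182 and 209 CPM in sgNeg and 290.0, 286 and 273 CPM in sgPRMT5-2. DNMT1 rose by 0.62, and DNMT3A, which sets new marks, fell by 0.58. Cytoplasmic ribosomal proteins had 5 of 77 higher and 17 lower, with a median of -0.044 that changed sign without sgNeg replicate 1 (0.034) and reached -0.12 without sgNeg replicate 2 and -0.13 with library totals alone. RPL22 fell by 0.57 and RPS26 rose by 0.64, and pseudogenes of this family make read placement uncertain. Subunits of oxidative phosphorylation had 14 of 71 higher and 6 lower, with a median of 0.044 that became -0.039 with library totals alone and -0.033 without sgNeg replicate 2, and ranged up to 0.093 without sgNeg replicate 1. Of 13 mitochondrially encoded transcripts, 2 were higher and 0 lower, with a median of 0.030 with all 6 libraries and 0.48 without sgNeg replicate 2. It changed sign without sgNeg replicates 1 and 3 (-0.28 and -0.059), without sgPRMT5-2 replicate 3 (-0.12) and with library totals alone, and was 0.25 without sgPRMT5-2 replicate 1. MT-ND2, 1 of those called, with overlapping groups, was at 0.62. Its call was lost without sgNeg replicates 1 and 3 (0.28 and 0.57) and without sgPRMT5-2 replicates 2 and 3 (0.64 and 0.54), while it was 1.01 without sgNeg replicate 2. Their summed level was 6765, 20054 and 9278 CPM in sgNeg and 8881, 11209 and 14083 CPM in sgPRMT5-2.

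By chromosome, chromosome 16 had 181 of 654 tested genes higher (27.7%) and 79 lower (12.1%), with a median of 0.14, and chromosome 15 had 51 of 457 higher (11.2%) and 127 lower (27.8%), with a median of -0.17. These chromosomes were picked after the values of all were seen. Without sgNeg replicate 2 their medians were 0.15 and -0.18, and with sgPRMT5-1 against the same sgNeg libraries 0.038 and -0.070. By level, the fifth of tested genes with the fewest reads had a median of -0.20 with 133 of 2837 genes higher and 347 lower, and the fifth with the most had 0.11 with 1135 higher and 491 lower. Copy number was not measured. Of long noncoding RNA genes, 93 of 1329 were higher and 117 lower, against 2839 and 2581 of 12254 protein-coding genes.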
